A study of Homo sapiens with 24 samples.

Results

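MM1R cells in which IRF4 was knocked down by siRNA were compared with control MM1R cells. The comparison uses 6 of the 24 libraries of the series, 3 labelled siIRF4 and 3 labelled CTRL, and 12907 of 25341 listed genes, those with at least 1 transcript per M (TPM) in at least 3 of the 6 libraries. MM1R is an established human multiple myeloma line and comes from the same patient as MM1S, which the series also holds, as it does the myeloma lines KMS-12-BM and KMS-12-PE. MM1R was taken as the line of the series with the smallest fall of IRF4 mRNA, so the size of that fall beside the other lines is a description here. The siIRF4 cells were electroporated with pooled ON-TARGET siRNAs and are labelled 48 hours, whereas the CTRL cells are labelled DMSO at 0 hours. No control siRNA is named. The knockdown, siRNA delivery, electroporation, DMSO and time therefore differ together between the groups and cannot be told apart. Nothing states that the replicates came from different cultures, and all p-values below refer to the spread among these libraries, which may be technical. The title of the series concerns catalytic inhibition of the acetyltransferase p300 and its effect on IRF4, and the knockdown asks which transcripts differ once IRF4 is lowered.

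IRF4 is a transcription factor of the interferon regulatory factor family that directs plasma cell differentiation and on which myeloma cells depend. It binds composite elements with ETS partners such as PU.1 (SPI1) and SPIB, or with AP-1 partners such as BATF, and it can bind interferon response elements. PRDM1, MYC and KLF2 are among the genes known to lie downstream of it.

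The MM1R libraries held 19.2 to 22.3 M recovered reads in CTRL and 21.6 to 27.4 M in siIRF4. Between 12561 and 12647 genes reached 1 TPM in CTRL and between 12886 and 12981 in siIRF4. Beside this, genes with a mean of 0.01 to 0.1 TPM summed to 89.1 to 120.0 TPM in CTRL and to 179 to 296 TPM in siIRF4, and the part of this in the results was not tested. Libraries of 1 group correlated across genes at r of 0.992 to 0.993. On the leading principal component (62.3% of the variance) siIRF4 1 lay farthest from CTRL, and CTRL 2 stood apart on the next one (10.7%). For 12 genes restricted to KMS-12-BM, the median level in MM1R was 0.399%, 0.347% and 0.904% of that in KMS-12-BM in CTRL 1 to 3 and 1.01%, 0.987% and 0.310% in siIRF4 1 to 3. Both groups thus held libraries with more and with less of these traces, whose source was not tested. Among the genes tested, 14 lay under 1% of another line and were passed over in choosing the largest changes.

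Of plasma cell markers, SDC1 (syndecan-1, CD138) was at 721, 728 and 764 TPM in CTRL and 577, 555 and 563 TPM in siIRF4. TNFRSF17 (BCMA) was at 903, 837 and 832 TPM in CTRL and 512, 529 and 537 TPM in siIRF4. The B cell genes PAX5 and MS4A1 stayed below the filter, with highest values of 0.187 and 0.118 TPM. Of marker lists for other cell types, 4 of 13 T and NK cell genes, 2 of 12 stromal, 2 of 6 erythroid, 3 of 11 epithelial and 2 of 9 myeloid genes passed it. S100A8, KRT14, COL3A1 and GZMB were at 0 in all 6 libraries.

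IRF4 itself was at 376, 365 and 399 TPM in CTRL 1, 2 and 3 and 259.9, 299 and 314 TPM in siIRF4 1, 2 and 3. The groups did not overlap, and siIRF4 1 was the lowest. The mean went from 380.3 ± 17.3 to 291.0 ± 27.8 TPM (SD, n = 3), a loss of 23.5%. On the log2(TPM + 1) scale, used for every change below as siIRF4 minus CTRL, IRF4 fell by 0.39 ± 0.069 (SE; limma adjusted p = 0.0019). A two-sided exact permutation test gave p = 0.1, the smallest that 3 against 3 libraries allow. The loss was 50.4% for MM1S, 38.4% for KMS-12-BM and 52.6% for KMS-12-PE, values that chose the line and were not tested against each other.

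**Figure D1:**
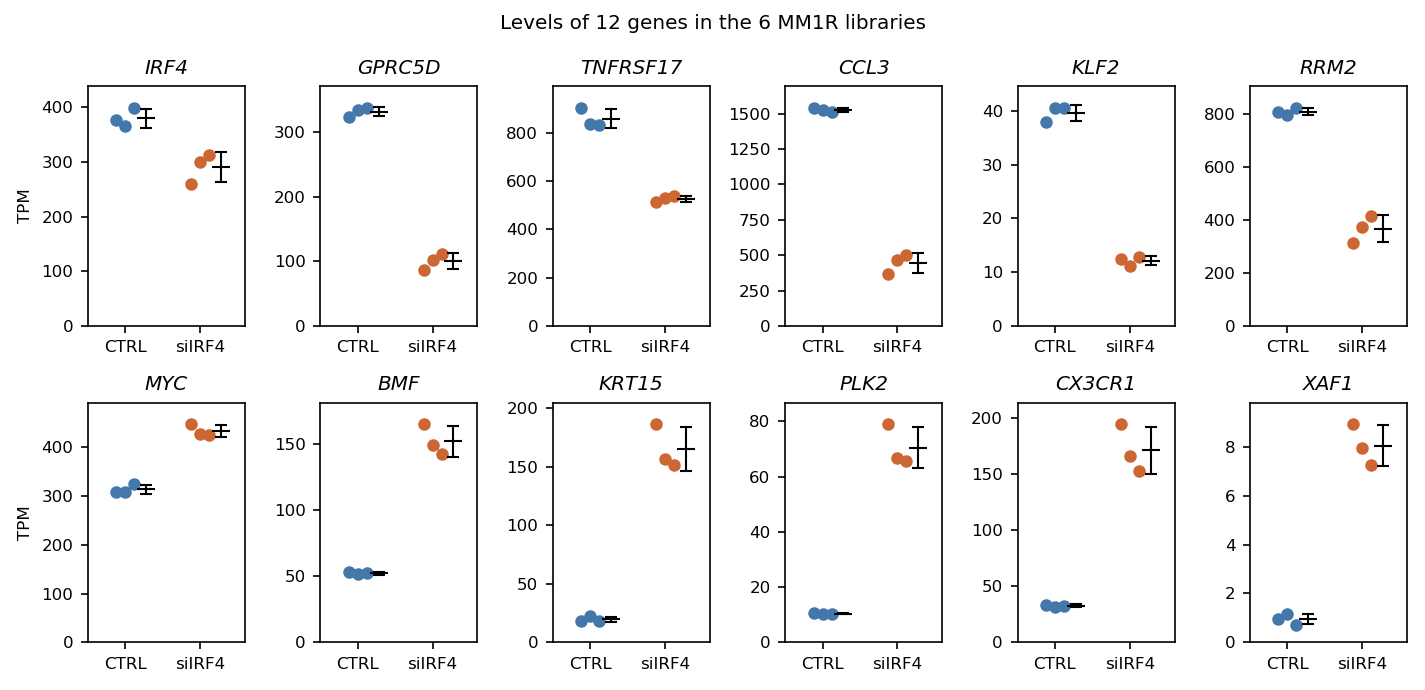
Levels of 12 genes in TPM (vertical axes) in the 3 CTRL and 3 siIRF4 libraries of MM1R. Points are libraries and the marks with bars are mean ± SD. The siIRF4 and CTRL points of each gene do not overlap, as for 59.6% of all genes tested. The largest rises and falls among them were chosen from such genes. IRF4 goes from a mean of 380.3 to 291.0 TPM.

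Many transcripts differed beside it. Of the 12907 genes, 3426 were higher (26.5%) and 3011 lower (23.3%) in siIRF4, 49.9% in either direction, at a limma Benjamini-Hochberg adjusted p under 0.05. Most of these differences were small, since 2403 of the higher genes rose by less than 0.5 and 2263 of the lower genes fell by less than 0.5. A change of 1 or more was called for 191 higher and 45 lower genes. The groups did not overlap for 59.6% of all genes, with siIRF4 higher for 31.6% and lower for 28.0%. Of genes with a mean above 100 TPM, 25.7% were called higher and 40.3% lower, and of those between 1 and 10 TPM 26.6% and 12.8%. The gene groups below are read against these shares and against the median change of all genes, 0.02. In bulk libraries fewer cells of a kind and less RNA per cell cannot be told apart.

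**Figure D2:**
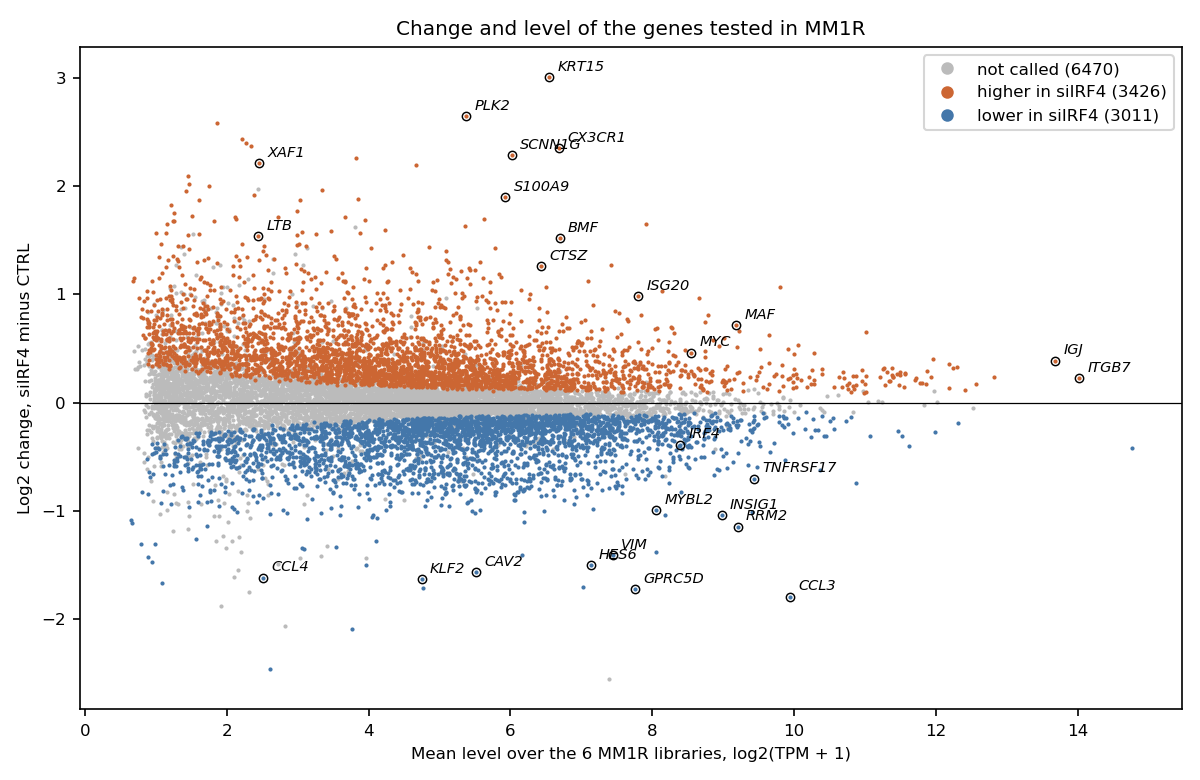
Log2 change in MM1R (siIRF4 minus CTRL, vertical axis) against mean level, log2(TPM + 1) (horizontal axis), for the 12907 genes tested. Orange points were called higher (3426), blue lower (3011) and grey not called; the named points include KRT15 (3.01) at the top and CCL3 (-1.79) at the bottom right.

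CCL3 (MIP-1 alpha, a chemokine that myeloma cells secrete) had the largest fall among called genes with at least 5 TPM in the higher group, after setting apart microRNA, antisense and similar symbols. It was at 1541, 1525 and 1511 TPM in CTRL and 365, 463 and 504 TPM in siIRF4, a fall of 1.79 ± 0.13. GPRC5D, an orphan receptor of plasma cells targeted by myeloma therapies, was at 324, 334 and 338 TPM in CTRL and 86.9, 103 and 111 TPM in siIRF4, a mean 3.31-fold lower (limma adjusted p = 5.0e-06). KLF2, a Krüppel-like factor, was at 37.9, 40.6 and 40.5 TPM in CTRL and 12.4, 11.2 and 12.8 TPM in siIRF4. In these 3 genes the groups lay far apart, and the siIRF4 libraries of CCL3 spread from 365 to 504 TPM. CYP26A1, which degrades retinoic acid, went from a mean of 40.6 to 11.8 TPM, HES6, a helix-loop-helix factor, from 206 to 72.3 TPM, and RRM2, a subunit of ribonucleotide reductase, from 809.8 to 368 TPM. Both caveolins above the filter fell, CAV1 from 98.8 to 45.5 TPM and CAV2 from 67.6 to 22.2 TPM. VIM (vimentin) fell from 251 to 94.9 TPM and SPARC from 24.999 to 12.5 TPM. These 2 are the only stromal markers above the filter, and the stromal list summed to 273 to 287 TPM in CTRL and 87.8 to 123 TPM in siIRF4. CCL4, HRASLS2, ST8SIA2, ANKRD9, TMEM238 and TXNDC5 completed the 15. TMEM238 was at 92.8, 129 and 83.02 TPM in CTRL and 61.004, 31.02 and 26.4 TPM in siIRF4. TXNDC5, a protein disulfide isomerase of the ER, was at 409, 432 and 297 TPM in CTRL and 223, 124 and 107 TPM in siIRF4. Libraries of the same group spread widely in both genes, and their calls (adjusted p = 0.044 and 0.035) were lost without any 1 of CTRL 1, CTRL 2, CTRL 3, siIRF4 2 or siIRF4 3, with adjusted p of 0.081 to 0.134 for TMEM238 and 0.054 to 0.111 for TXNDC5. With a replicate block adjusted p was 0.11 and 0.052.

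By the same rule the largest rise was that of KRT15, a keratin. It was at 18.1, 22.2 and 18.6 TPM in CTRL and 186, 157 and 152 TPM in siIRF4, an 8.40-fold higher mean and a change of 3.01 ± 0.10. PLK2, a polo-like kinase, was at 10.6, 10.4 and 10.1 TPM in CTRL and 78.96, 66.7 and 65.6 TPM in siIRF4. CX3CR1, the fractalkine receptor, was at 33.8, 31.2 and 32.7 TPM in CTRL and 194, 166 and 153 TPM in siIRF4. In each of the 3 genes siIRF4 1 was the highest library. SCNN1G, a subunit of the epithelial sodium channel, rose from a mean of 21.01 to 107 TPM, LY86 (MD-1) from 8.20 to 40.7 TPM, and C3AR1, the receptor for complement C3a, from 3.16 to 15.2 TPM. XAF1, an interferon-inducible antagonist of XIAP, rose from 0.949 to 8.04 TPM. S100A9, a calcium-binding protein of myeloid cells, was at 21.9, 25.4 and 27.04 TPM in CTRL and 98.5, 91.6 and 93.98 TPM in siIRF4. FRMD3, SATB1, FBP1, IFITM2, DDIT4L, KDM5B and LINGO3 completed the 15 largest rises. IFITM2 lay at 1.104% to 1.84% of its KMS-12-BM level in CTRL and at 5.10% to 8.39% in siIRF4. The medians over the 12 genes restricted to KMS-12-BM were 0.310% to 1.01% in siIRF4. The part of such traces in the rise of IFITM2 was not tested. Summed epithelial markers were 23.7 to 28.4 TPM in CTRL and 157 to 192 TPM in siIRF4, and summed myeloid markers 49.0 to 57.4 and 126 to 135 TPM. KRT15 made most of the epithelial sum in each group and S100A9 most of the myeloid sum in siIRF4, while KRT14 and S100A8 were at 0.

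Plasma cell genes fell more often than they rose. Of 18 tested, 9 were lower and 4 higher, with a median of -0.14. Most of them had a mean above 100 TPM, where 40.3% of all genes tested were called lower. Beside GPRC5D and TXNDC5, TNFRSF17 fell by 38.6% of its mean TPM and SLAMF7, an adhesion receptor and antibody target, fell by 29.1%. PRDM1 (Blimp-1, which directs plasma cell identity) fell by 24.4% and the coactivator POU2AF1 fell by 24.2%, as SDC1 did from 738 to 565 TPM. XBP1, the factor of the secretory program, was at 1382 and 1316 TPM and CD38 at 19.3 and 19.996 TPM, neither of them called. IKZF3 (Aiolos) rose from 41.4 to 62.3 TPM, and MZB1, a chaperone of antibody assembly, from 3093 to 3563 TPM. IGJ, the J chain, was at 12214, 11038 and 10968 TPM in CTRL and 15537, 14862 and 14378 TPM in siIRF4. This call was lost when the spread was taken over all 24 libraries (adjusted p = 0.316). The level summed over the whole plasma cell list was 20995 to 22260 TPM in CTRL and 23727 to 25049 TPM in siIRF4. IGJ was the most of it in both groups. Among 16 surface antigens targeted in myeloma 5 were higher, CD40 and LY9 foremost (3 higher with the spread over all 24 libraries), and 7 lower, LILRB4 (9.65 to 5.88 TPM) and CD70 (136 to 95.8 TPM) among them.

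B cell genes rose. Of the 13 above the filter 11 were higher and TCF3, a helix-loop-helix factor, was lower (371 to 253 TPM), with a median of 0.43. Another 8 of the list did not reach the filter. CXCR5, the receptor that guides B cells into follicles, was at 3.66, 3.53 and 3.55 TPM in CTRL and 11.1, 9.46 and 9.96 TPM in siIRF4. CD79A, a subunit of the B cell receptor, rose from 8.06 to 15.4 TPM, the kinase BLK from 3.88 to 7.84 TPM and ID3, an inhibitor of TCF3, from 24.04 to 38.6 TPM. BCL6, the repressor of germinal centre B cells, was at 0.561, 0.270 and 0.346 TPM in CTRL and 3.20, 1.98 and 2.37 TPM in siIRF4 and passed the filter only through siIRF4. The level summed over the whole list was 610 to 640 TPM in CTRL and 599 to 622 TPM in siIRF4, and TCF3 was the most of it in CTRL.

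MHC class II genes were higher for 7 of 8 and lower for none, at a median of 0.34. The higher count was 5 without siIRF4 2 and 6 without any 1 of CTRL 1, CTRL 2, CTRL 3 or siIRF4 3. It was also 6 with a replicate block, with median-of-ratios scaling and without a filter. Leaving out genes under 5% of another line left 6 class II genes, 5 of them higher. HLA-DMB (0.598 to 2.10 TPM), a peptide exchange factor that passed the filter only through siIRF4, and HLA-DRB5 (2.12 to 4.47 TPM) rose most. HLA-DRA rose from 30.2 to 34.4 TPM, and CIITA, the master regulator of the class, was at 9.75 and 9.23 TPM and was not called. With a mean of at least 5 TPM required, 4 class II genes were left and 3 of them were called higher. HLA-DRB5 shares much sequence with other DRB genes, and the split of reads among them is uncertain.

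Genes of the cell cycle fell together. All 52 mitosis and G2/M genes and all 48 DNA replication and G1/S genes tested were lower, at medians of -0.71 and -0.68. MKI67, the proliferation antigen, was at 244, 226 and 249 TPM in CTRL and 130.0, 143 and 148 TPM in siIRF4. MYBL2, a transcription factor of cycling cells, was at 340.2, 352 and 363 TPM in CTRL and 161, 182 and 186 TPM in siIRF4. The groups lay far apart in both. FOXM1, which drives the mitotic program, fell from 86.02 to 48.01 TPM, ORC1, of the origin recognition complex, fell by 51.0% and CDC25A, a phosphatase that releases CDK activity, fell by 51.0%. The smallest changes were those of BUB3 (-0.26) and RPA1 (-0.26).

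Of 17 cyclins D and E, CDKs and their inhibitors, 11 were lower and 1 higher. CCND2, the D cyclin that MAF drives in myeloma, was at 259, 253 and 255 TPM in CTRL and 157, 169 and 175 TPM in siIRF4. CCND3 fell from 43.8 to 28.3 TPM, CDK6, a partner of both, from 34.9 to 24.3 TPM and CDKN1A (p21), a CDK inhibitor, from 175 to 146 TPM. CCND1 was at 1.98, 1.67 and 5.94 TPM in CTRL and 4.78, 4.59 and 1.35 TPM in siIRF4. This is 0.217% to 0.957% of its KMS-12-BM level and no more than the highest of the trace medians above. The part of such traces in CCND1 was not tested.

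**Figure D3:**
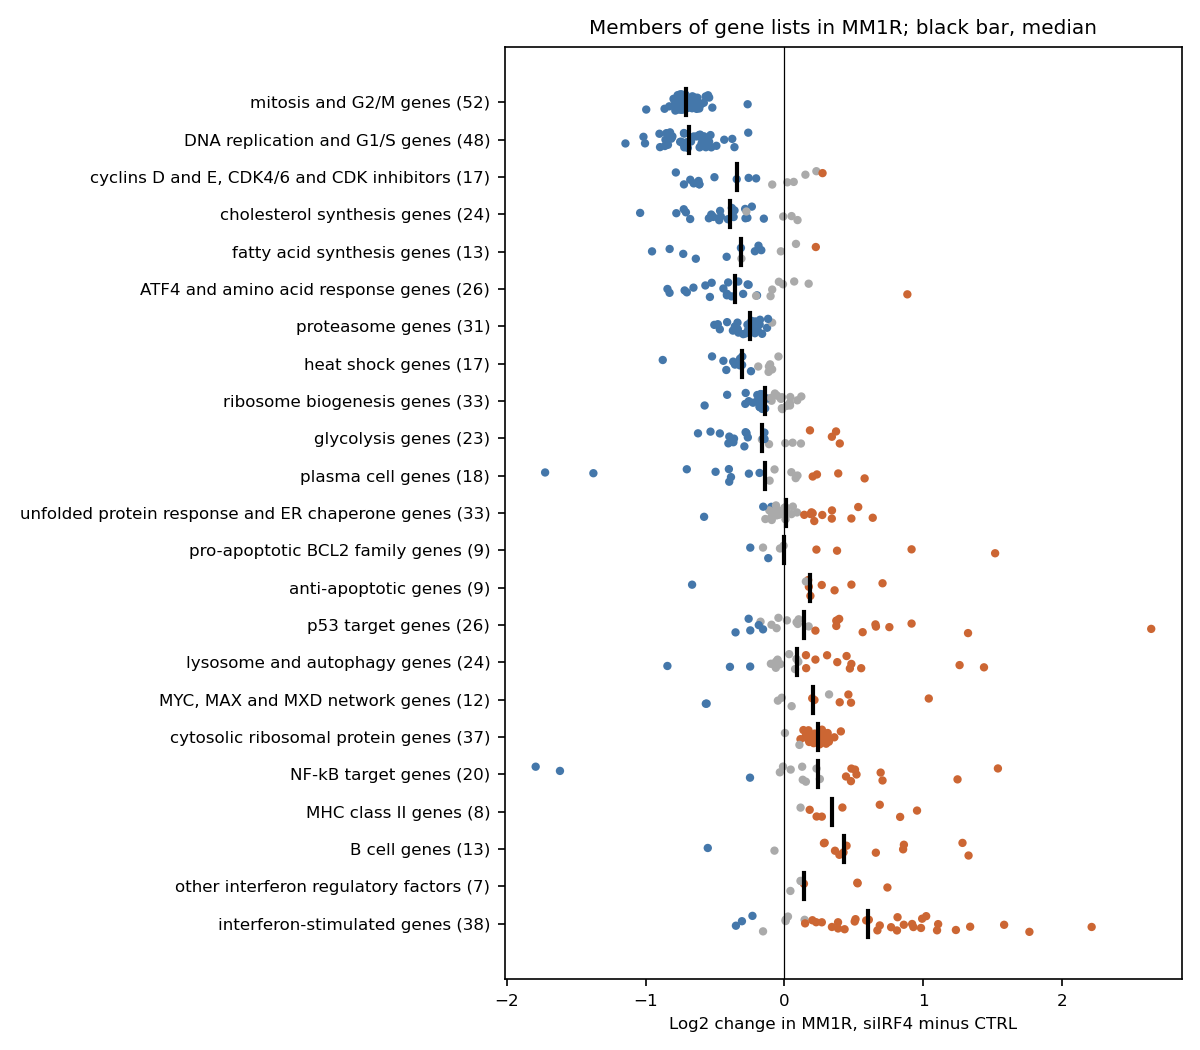
Log2 change in MM1R (siIRF4 minus CTRL) of the members tested in 23 gene lists. Each point is a gene (orange called higher, blue lower, grey not called) and each bar the median of the list; the 2 cell cycle lists lie wholly below 0, and interferon-stimulated genes have a median of 0.60.

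The siIRF4 libraries differed among themselves. Medians over mitosis genes were -0.84, -0.71 and -0.60 in siIRF4 1, 2 and 3, and over replication genes -0.82, -0.64 and -0.56. IRF4 stood in the same order, lowest in siIRF4 1, and no test was made of an order over 3 libraries. Interferon-stimulated genes (0.62, 0.59 and 0.59) and cholesterol synthesis genes (-0.41, -0.39 and -0.42) spread less.

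**Figure D4:**
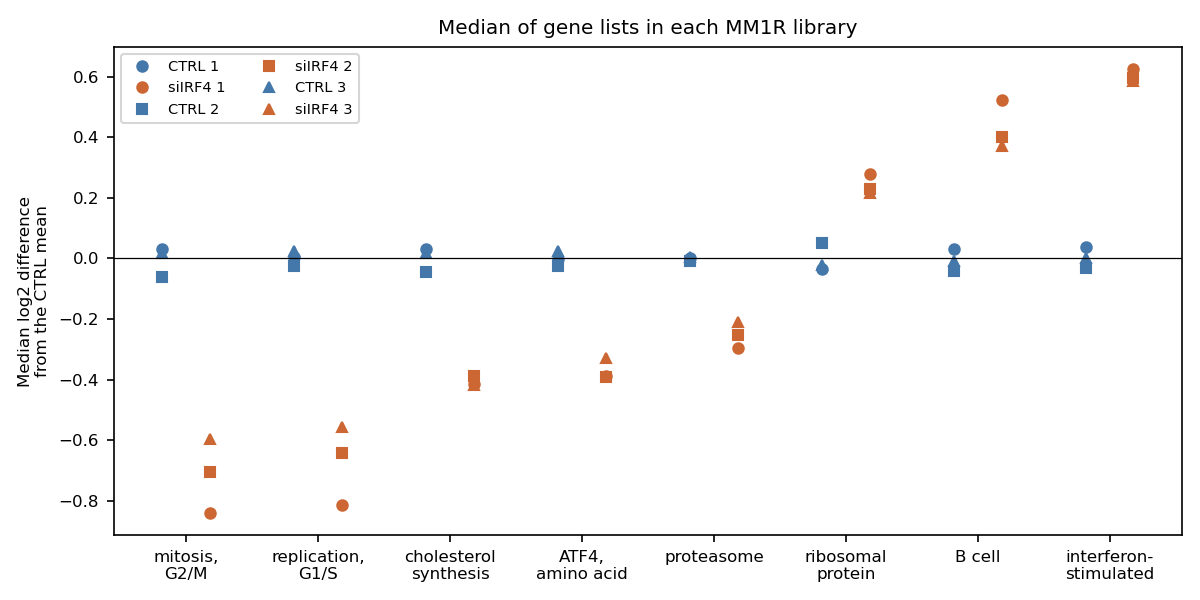
Median over the members of 8 gene lists in each of the 6 MM1R libraries, as log2 difference from the mean of the CTRL libraries. The mitosis list reaches -0.84 in siIRF4 1 and -0.60 in siIRF4 3, while its CTRL medians lie between -0.06 and 0.03.

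MYC was higher. It was at 309, 309 and 325 TPM in CTRL and 448, 428 and 425 TPM in siIRF4, a change of 0.46 ± 0.039 (limma adjusted p = 6.7e-06). Of 12 genes of the MYC, MAX and MXD network 6 were higher and 2 lower. MXD4 and MXI1, MAX partners that oppose MYC, rose from 45.3 to 94.6 TPM and from 18.4 to 26.01 TPM. MAF, the oncogene translocated in this line, was at 454, 426 and 434 TPM in CTRL and 822, 699 and 649 TPM in siIRF4. Of 8 genes of its list 5 were higher, NUAK1 (43.7 to 70.9 TPM) and ITGB7 among them, and CCND2 and CCR1 lower. The call of ITGB7 in MM1R (15344 to 17935 TPM) was lost with the spread over all 24 libraries (adjusted p = 0.525). Of 13 genes linked to IRF4 in B cells and myeloma 6 were higher, with the demethylase KDM3A (35.8 to 53.5 TPM) and with BCL6, which passed the filter only through siIRF4, and 5 lower.

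Pro-apoptotic BCL2 family genes were higher for 4 of 9. BMF, a BH3-only protein, was at 53.4, 51.5 and 52.4 TPM in CTRL and 165, 149 and 143 TPM in siIRF4, a 2.91-fold higher mean. BBC3 (PUMA) rose from 12.6 to 24.6 TPM, BAX by 0.38 and BCL2L11 (BIM) by 0.23. PMAIP1 and BAK1 were called lower (-0.25 and -0.12), but none of the list was without any 1 of CTRL 1, CTRL 3, siIRF4 1 or siIRF4 2, or with a replicate block, and 1 was without CTRL 2. Of 9 anti-apoptotic genes 7 were higher, MCL1 from 263 to 339 TPM and CFLAR, which blocks caspase-8, from 26.6 to 37.6 TPM, and BIRC5 (survivin, also a mitotic gene) fell from 146 to 92.3 TPM. The call of BCL2 (34.3 to 38.7 TPM) was lost without any 1 of CTRL 2, CTRL 3, siIRF4 1 or siIRF4 2 (adjusted p 0.064 to 0.089). The higher anti-apoptotic count was 5 without any 1 of CTRL 2, CTRL 3 or siIRF4 2. It was 6 without siIRF4 1 or siIRF4 3 and 8 without CTRL 1.

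Of 26 p53 target genes 12 were higher and 5 lower. PLK2 and ZMAT3 (2.60 to 8.03 TPM) rose most, and CDKN1A and MDM2, the ligase that degrades p53 (302 to 236 TPM), fell. Without CTRL 1, CTRL 3 or siIRF4 1 there were 2 lower genes, and without siIRF4 2 there were 3. Of 15 death receptor and caspase genes 6 were higher and 4 lower. TNFRSF10B, a receptor for TRAIL, rose from 38.6 to 61.4 TPM and TNFSF10 (TRAIL) from 4.78 to 7.09 TPM.

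Interferon-stimulated genes were higher for 30 of the 38 above the filter, and SAMD9L, HERC5 and BST2 were lower. Their median change was 0.60. DDX60 passed the filter only through siIRF4, and 9 others, IFIT1 and RSAD2 among them, stayed below it. IFI44 was at 4.80, 3.73 and 5.19 TPM in CTRL and 15.9, 15.6 and 15.4 TPM in siIRF4. IFI6, which preserves mitochondria, was at 22.8, 19.1 and 18.8 TPM in CTRL and 48.3, 49.9 and 48.6 TPM in siIRF4. MX1, an antiviral GTPase, was at 19.9, 21.7 and 23.7 TPM in CTRL and 45.5, 47.1 and 50.9 TPM in siIRF4. The 3 siIRF4 libraries lay close together in these genes, and so they did in DTX3L, a ubiquitin ligase (5.36 to 12.7 TPM).

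Factors that drive such genes were higher for 4 of the 7 other interferon regulatory factors tested, IRF9 from 22.1 to 37.7 TPM, IRF7 from 37.1 to 53.995 TPM, IRF1 from 69.3 to 100.3 TPM and IRF5 by 0.14. The count was 3 without any 1 of CTRL 1, CTRL 2, siIRF4 1 or siIRF4 2, and 5 without CTRL 3. It was also 3 with eBayes without trend and with all 24 libraries in the fit. STAT2, which acts with IRF9, rose from 82.9 to 109 TPM. IFNB1 was at 0 in all 6 libraries. Of 14 genes of nucleic acid sensing and interferon receptors 6 were higher and 1 lower, TLR9 (1.02 to 2.74 TPM), which senses DNA, and IFNGR1 (22.02 to 36.3 TPM), a chain of the interferon gamma receptor, rising most. The 1 lower call, of TICAM1, was lost without any 1 of CTRL 1, CTRL 3, siIRF4 1, siIRF4 2 or siIRF4 3 and with a replicate block, and 2 genes were lower without CTRL 2.

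Promoters of 4 interferon-stimulated genes that rose, and of CYP26A1, which fell, are shown because each holds a match to the core of the interferon response element (GAAA, 2 bases of any kind, GAAA). They are RefSeq sequences on GRCh38.p14 from 250 bases before to 50 after the start, on the strand of the gene. Capitals mark matches, on either strand, to this core or to the composite element of ETS factors and IRF4 (GGAA, 2 bases of any kind, GAAA). The deposited values rest on hg19, which is not used for these windows. They lie at chr1:78649539-78649838 (+), chr1:27672143-27672442 (-), chr3:122564088-122564387 (+), chr21:41420308-41420607 (+) and chr10:93073225-93073524 (+).
IFI44: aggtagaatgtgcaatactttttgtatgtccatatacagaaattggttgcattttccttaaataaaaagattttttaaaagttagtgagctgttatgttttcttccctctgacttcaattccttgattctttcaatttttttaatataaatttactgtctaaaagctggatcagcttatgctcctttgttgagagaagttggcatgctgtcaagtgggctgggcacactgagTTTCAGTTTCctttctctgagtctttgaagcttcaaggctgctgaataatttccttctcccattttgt
IFI6: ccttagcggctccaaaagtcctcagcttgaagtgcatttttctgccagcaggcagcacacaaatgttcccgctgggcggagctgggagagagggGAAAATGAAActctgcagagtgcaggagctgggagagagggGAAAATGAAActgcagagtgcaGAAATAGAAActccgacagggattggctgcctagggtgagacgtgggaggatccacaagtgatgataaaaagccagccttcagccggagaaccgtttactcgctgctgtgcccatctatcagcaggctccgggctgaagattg
DTX3L: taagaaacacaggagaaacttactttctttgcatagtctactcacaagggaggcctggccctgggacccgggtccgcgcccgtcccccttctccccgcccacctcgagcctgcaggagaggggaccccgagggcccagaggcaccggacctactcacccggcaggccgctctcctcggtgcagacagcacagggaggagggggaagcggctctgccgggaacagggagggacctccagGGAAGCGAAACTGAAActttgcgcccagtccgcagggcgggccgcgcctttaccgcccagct
MX1: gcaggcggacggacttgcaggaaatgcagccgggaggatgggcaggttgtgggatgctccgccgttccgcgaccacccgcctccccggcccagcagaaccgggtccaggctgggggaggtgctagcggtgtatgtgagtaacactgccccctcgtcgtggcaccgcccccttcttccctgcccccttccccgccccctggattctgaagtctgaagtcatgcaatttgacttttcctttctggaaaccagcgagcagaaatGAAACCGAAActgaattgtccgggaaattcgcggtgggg
CYP26A1: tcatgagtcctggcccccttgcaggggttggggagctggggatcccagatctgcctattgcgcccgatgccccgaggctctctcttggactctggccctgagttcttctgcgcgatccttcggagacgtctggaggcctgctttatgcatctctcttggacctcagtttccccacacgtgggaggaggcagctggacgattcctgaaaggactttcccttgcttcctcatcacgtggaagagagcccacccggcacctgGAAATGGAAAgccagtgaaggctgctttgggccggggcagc

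The match of IFI44 starts at -18 from the gene's start, on the opposite strand. IFI6 holds 3 matches, at -156, -115 and -93, and in DTX3L the composite element at -12 overlaps the core at -6. MX1 and CYP26A1 hold theirs after the start, at 11 and 9. The core was found in 16 of the 25 interferon-stimulated genes that rose and had a promoter in the table (64.0%), and in 5 of the 6 that did not rise (83.3%). Its share was 3.57% of all 35116 promoters and 3.01% of the 9110 tested genes with an entry. The composite element was found in 6 of the 25 genes that rose and in 2.82% of all promoters, and the AP-1 site (TGANTCA) in 8.0% and 7.71%. None of the 11 matched genes among the 15 largest rises held the core, nor did the matched replication (40) or mitosis (44) genes. A match describes letters in a window, and no match says only that these letters are not there.

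NF-kB target genes were higher for 9 of 20 and lower for 3. One of the higher genes, REL, an NF-kB subunit (0.435 to 1.32 TPM), passed the filter only through siIRF4. CD40, a costimulatory receptor, was at 8.998, 8.86 and 6.89 TPM in CTRL and 24.4, 19.5 and 19.1 TPM in siIRF4, and LTB (lymphotoxin beta) rose from 1.79 to 7.07 TPM. Of 12 chemokines and receptors 4 were higher, CCL5 from 24.7 to 35.2 TPM, and 5 lower, CXCR3 from 75.1 to 48.6 TPM (3 lower among the 10 genes with a mean of at least 5 TPM). CCL3L1 (1.72 to 0.554 TPM), among the lower, passed the filter only through CTRL. Among the ETS and AP-1 partners of IRF4 4 of 10 were higher and 4 lower. SPI1 was at 42.1, 38.9 and 40.7 TPM in CTRL and 90.1, 79.4 and 67.4 TPM in siIRF4. ETS1 rose from 31.7 to 52.6 TPM, JUN fell from 14.6 to 9.35 TPM, and BATF was at 9.56 and 10.5 TPM and was not called.

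Genes of lipid synthesis fell. Of 24 cholesterol synthesis genes 20 were lower and none higher, at a median of -0.39. INSIG1, which retains the sterol sensor in the ER, was at 712, 643 and 674 TPM in CTRL and 297, 346 and 344 TPM in siIRF4. HMGCS1, an early enzyme of the pathway, fell from 112 to 68.3 TPM. Of 13 fatty acid synthesis genes 9 were lower and 1 higher. The desaturases FADS1 (45.3 to 22.9 TPM) and SCD (433 to 244 TPM) and the synthase FASN (226 to 136 TPM) fell most. Amino acid genes of the ATF4 response were lower for 18 of 26, with PSAT1 and PHGDH of serine synthesis at -0.83 and -0.65. DDIT4, an inhibitor of mTORC1, was the 1 that rose (22.3 to 42.2 TPM), and 2 did without CTRL 1.

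Proteasome genes were lower for 30 of 31, at a median of -0.25, PSMB6, a catalytic subunit, from 495 to 349 TPM. Heat shock genes were lower for 11 of 17 and ribosome biogenesis genes for 18 of 33, with none higher in either (1 ribosome biogenesis gene without CTRL 3). These are 64.7% and 54.5%, beside 23.3% of all genes tested and 40.3% of those with a mean above 100 TPM. The lower ribosome biogenesis count was 14 without CTRL 3 and 15 without siIRF4 1 or siIRF4 2. It was also 15 without a filter and with eBayes without trend. HSPB1, a small chaperone, fell from 157 to 85.02 TPM. Cytosolic ribosomal protein genes went the other way, with 35 of 37 higher and a median of 0.25. RPS27 was at 3391, 3692 and 3211 TPM in CTRL and 4597, 4587 and 4453 TPM in siIRF4.

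Unfolded protein response and ER chaperone genes were higher for 11 of 33 and lower for 3, at a median of 0.01. HERPUD1 and SEL1L, both of ER-associated degradation, parted: the former rose from 804 to 1020.2 TPM and the latter fell from 115 to 76.6 TPM. DNAJB9, an ER co-chaperone, rose from 103 to 149.8 TPM and ERN1 (IRE1), the sensor that splices XBP1, from 81.6 to 115 TPM. The 3 lower genes became 6 with median-of-ratios scaling and 9 with voom on recovered reads, 1 without CTRL 1 and 5 without CTRL 2.

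EP300 (p300), the subject of the series' title, was at 48.6, 42.6 and 48.1 TPM in CTRL and 49.6, 49.03 and 47.1 TPM in siIRF4, a change of 0.07 ± 0.057 (limma adjusted p = 0.36). Its paralog CREBBP was at 24.7 and 26.9 TPM (adjusted p = 0.087). Of 24 acetyltransferase, reader and deacetylase genes 4 were higher, HDAC7 from 103 to 152 TPM foremost, and 2 lower. None was lower without CTRL 1, siIRF4 1 or siIRF4 3, and 1 was without CTRL 3 or siIRF4 2. Of 11 cereblon ligase and Ikaros genes, which mediate the action of lenalidomide, 5 were higher and 2 lower. Without CTRL 2, CTRL 3 or siIRF4 1 there were 2 higher and without siIRF4 2 there were 3. The lower count was 1 without any 1 of CTRL 1, CTRL 2, siIRF4 1, siIRF4 2 or siIRF4 3. The rise of CRBN from 35.6 to 41.4 TPM was among the calls lost without any 1 of CTRL 2, CTRL 3, siIRF4 1 or siIRF4 2 (adjusted p 0.052 to 0.059).

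MM1R is known as a glucocorticoid-resistant line. NR3C1, the glucocorticoid receptor, was at 2.86, 2.57 and 3.07 TPM in CTRL and 2.55, 2.67 and 2.61 TPM in siIRF4. The higher MM1R group mean was 5.79% of the highest group mean among the other lines, and NR3C1 was not called. Of 10 glucocorticoid receptor and response genes 4 were higher and 2 lower. SGK1, a kinase, rose from 20.4 to 38.6 TPM and TSC22D3 (GILZ) from 60.2 to 83.9 TPM.

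The response resembled that of MM1S most. Of the genes called in MM1R 95.7% had the same sign in MM1S, against 65.7% for KMS-12-BM and 65.6% for KMS-12-PE. Across genes, which are not independent, the change correlated with that of MM1S at r = 0.76 and with that of either KMS-12 line at 0.26. The responses of MM1R and MM1S differed for 326 genes (2.53%), 131 with MM1R above (1.01%) and 195 below (1.51%), and median-of-ratios scaling gave 207 above and 155 below. These counts were 64 and 68 without siIRF4 2, 78 and 80 without CTRL 3, 87 and 98 without siIRF4 3, 107 and 88 without CTRL 1 and 161 and 268 without siIRF4 1. The difference from the mean of the other 3 lines was called for 3386 genes (26.2%), 1616 above (12.5%) and 1770 below (13.7%). The lines also differed in how much IRF4 was lost, and the part of this in the differences was not tested.

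All 52 mitosis genes and 45 of 48 replication genes were below the mean of the other 3 lines. Against MM1S alone 1 mitosis gene and 0 replication genes differed, and the replication median was -0.80 for MM1S and -0.68 for MM1R. The median change of mitosis genes was -0.62 for MM1S, 0.09 for KMS-12-BM and -0.003 for KMS-12-PE. Unfolded protein response genes were above the mean of the other lines for 28 of 33, and 3 of them differed from MM1S (median -0.05 there). Ribosomal protein genes were above that mean for 24 of 37, and 0 differed from MM1S (median 0.18 there). HERPUD1 was above that mean by 0.98 (limma adjusted p = 5.7e-13) and above MM1S by 0.40 (adjusted p = 8.4e-04), and TNFRSF17 was above the mean by 1.34 (adjusted p = 4.1e-11). MYC was above the mean by 0.64 (limma adjusted p = 1.1e-08), but its difference from MM1S, 0.24, was not called (adjusted p = 0.057). Interferon-stimulated genes had medians of 0.63 (MM1S), 0.15 (KMS-12-BM) and 0.36 (KMS-12-PE).

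**Figure D5:**
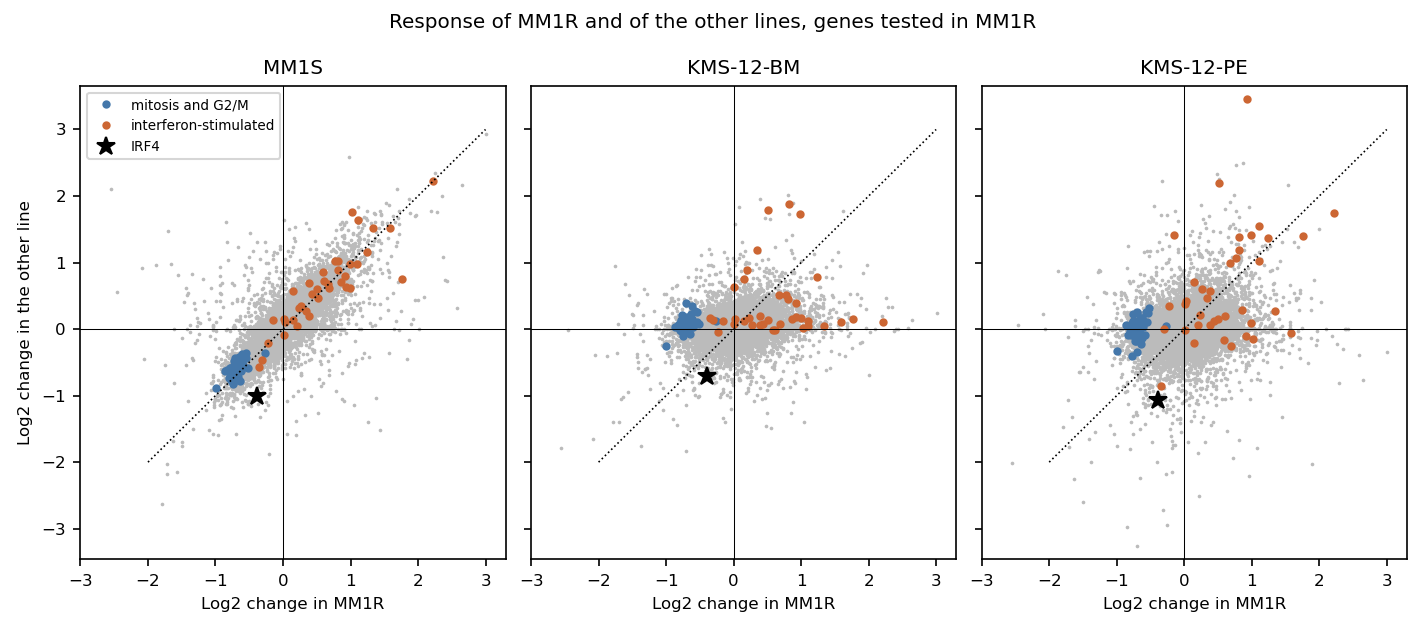
Log2 change in MM1R (horizontal axes) against that of each other line (vertical axes, 1 panel a line) for the 12907 genes, with mitosis genes and interferon-stimulated genes coloured, IRF4 as a star and a dotted line of equal change. Mitosis genes lie along the line in MM1S (median -0.62) and around 0 for KMS-12-BM (0.09) or KMS-12-PE (-0.003). IRF4 falls less in MM1R than in each other line, which is the rule by which MM1R was chosen.

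Against MM1S, HLA-DRA differed by 0.69 (limma adjusted p = 3.1e-04), with a change of -0.50 in MM1S, and 6 of the 8 class II genes differed. BHLHE40, a circadian repressor, fell in MM1R (11.8 to 8.80 TPM) and changed by 0.41 in MM1S (difference -0.79, adjusted p = 8.8e-04). TNFRSF17 fell less in MM1R, by 0.33 (adjusted p = 0.027), and BMF rose less, with a difference of -0.37 (adjusted p = 0.024). The means of CXCR5 in MM1S were 0.07 and 0.14 TPM, against 3.58 and 10.2 TPM in MM1R.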

How the data were processed

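Total RNA of MM1R cells was sequenced from 3 siIRF4 and 3 CTRL libraries. The submitters' processing notes name STAR, featureCounts, FastQC, MultiQC and hg19 without versions, and no source used here gives the annotation or strand setting. The deposited values are TPM made by the authors, and each library sums to 1000000 over 25370 rows. Left out were 28 rows with dates in place of symbols and 1 unnamed row. Whole reads could be recovered from TPM for 20484 genes (tolerance 0.02 reads, at least 99.974% of TPM in MM1R). They gave the depth and 1 alternative, and this precision bears on low genes most.

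Tests ran on log2(TPM + 1) of the deposited values for genes with at least 1 TPM in at least 3 of the 6 libraries, with limma 3.58.1 in R 4.3.3 (eBayes with trend and robust), two-sided, Benjamini-Hochberg adjusted p under 0.05. The added 1 TPM understates changes of low genes. Differences from MM1S used 12 libraries and those from the other lines 24. Only the siIRF4 group carried 164 genes past the filter, and only the CTRL group 38. The fit was tested on simulated data. Python 3.11.15 with numpy 2.4.6, numba 0.67.0, pandas 2.3.3 and matplotlib 3.10.9 made tables and figures.

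Named were IRF4, the 15 largest rises and falls (called, groups apart, at least 5 TPM in the higher group; microRNA, antisense, LOC and similar symbols passed over), up to 3 and 3 called members of each list, any member of some lists, and the 5 and 5 largest differences from MM1S and from the other lines. Results of some items are not reported here. The members and lists were chosen with earlier results of these data known. As alternatives, 0.1 TPM was added in place of 1, the filter was dropped or set to a mean of 5 TPM, and the rest were median-of-ratios scaling, eBayes without trend, all 24 libraries in 1 fit, a replicate block, voom on recovered reads, leaving out genes under 1% of another line (under 5% was added after seeing the data) and leaving out each library.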

Additional observations from a re-analysis of the deposited data

Results flagged for a closer look

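The response of MM1R differed from that of MM1S, by a test of the difference itself, for 326 genes. Most above were LILRA4 (1.29), CXCR5 (1.19), NLRP11 (1.15), CHRNA6 (0.99) and CES4A (0.87). In MM1S the means of LILRA4 were 0.02 and 0.07 TPM and those of CXCR5 0.07 and 0.14 TPM, and NLRP11 went from 4.49 to 1.73 TPM there, against 127 and 141 TPM in MM1R. With a pseudocount of 0.1 the difference was no longer called for CES4A (adjusted p = 0.179), CXCR5 (0.296) or LILRA4 (0.147). Most below were TNFRSF8 (-0.81), KCNK12 (-0.80), F2RL3 (-0.80), BHLHE40 (-0.79) and FAM89B (-0.79). F2RL3, a thrombin receptor, rose in both lines, from 27.5 to 36.8 TPM in MM1R and from 9.80 to 23.84 TPM in MM1S.

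From the mean of the other lines the response differed for 3386 genes. S100A9 (2.61), PLK2 (2.13), KRT15 (2.06), SCNN1G (1.86) and CX3CR1 (1.68) were most above. S100A9 went from 99.46 to 23.95 TPM in KMS-12-PE and from 75.38 to 82.87 TPM in MM1S, and its difference from MM1S was not called (adjusted p = 0.075). Nor were the differences from MM1S of KRT15 (0.08, adjusted p = 0.88), SCNN1G (0.53, adjusted p = 0.063) and CX3CR1 (0.36, adjusted p = 0.069), while that of PLK2 was (0.48, adjusted p = 0.024). CCL4 (-1.34), TMEM238 (-1.31), ANKRD9 (-1.13), DEK (-1.10) and KREMEN2 (-1.04) were most below, of which only DEK also differed from MM1S (-0.27, adjusted p = 0.04). The difference of CCL4 was not called with a pseudocount of 0.1 (adjusted p = 0.0607), nor that of TMEM238 with a replicate block (adjusted p = 0.0822).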

How the results depend on the processing

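Of the 272 named genes called, 233 kept direction and call in each of 16 settings and none reversed. Between 16 and 23 lost the call when a library was left out. The main comparison gave 3286 higher and 3367 lower with median-of-ratios scaling and 3495 and 3617 with voom. Leaving out a library gave 2879 to 3286 higher and 2564 to 3018 lower. Against MM1S, 131 above and 195 below became 207 and 155 with median-of-ratios scaling, and 64 to 161 and 68 to 268 with a library left out. Depth limits low genes. Without a filter 21708 genes were tested, with 3662 called higher and 2764 lower, and the part of depth in these counts was not tested.

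Replicate numbers did not pair the libraries (correlations of same-numbered deviations 0.003, -0.018 and 0.025). With a replicate block 3371 genes were higher and 2962 lower, against MM1S 83 were above and 93 below, and against the other lines 1531 and 1674. The block ended the call of 9 named genes. The causes of these changes were not tested.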

Other observations

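Of all genes tested 26.5% were called higher and 23.3% lower, and of those with a mean above 100 TPM 25.7% and 40.3%. Glycolysis genes were lower for 14 of 23 and higher for 4, ENO2 (365 to 237 TPM) and LDHA (1109 to 767 TPM), which makes lactate, falling most. Hypoxia genes, which share several members with them, were higher for 5 and lower for 6 of 18 (27.8% and 33.3%). Nuclear-encoded respiratory chain genes were higher for 5 and lower for 9 of 31, and 3 were higher without siIRF4 2 or siIRF4 3. NRF2 target genes were lower for 9 of 17, with SRXN1 foremost, while HMOX1 (heme oxygenase, 29.3 to 48.9 TPM) and PRDX1 rose. Replication-dependent histone genes were higher for 3 and lower for 6 of 18. Of the 5 with a mean of at least 5 TPM, 2 were higher and 2 lower. With all 24 libraries in the fit 3 of the 18 were lower.

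Lysosome and autophagy genes were higher for 11 of 24 and lower for 3. Cathepsin S (CTSS) was at 15.8, 13.01 and 14.7 TPM in CTRL and 46.1, 38.2 and 38.9 TPM in siIRF4, and CTSZ rose from 49.6 to 121 TPM, whereas GLA, alpha-galactosidase, fell from 84.4 to 46.6 TPM. MHC class I and antigen processing genes were higher for 7 of 15, B2M, the light chain of the class, from 4302 to 5373 TPM, and lower for 1, TAP1, whose call was lost without any 1 of CTRL 1, CTRL 3, siIRF4 1 or siIRF4 2. Integrin and adhesion genes were higher for 6 and lower for 3 of 14, ITGAL (84.8 to 119.5 TPM) rising and ITGA6 (27.7 to 18.3 TPM), a laminin receptor chain, falling most.

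IL-6, STAT3 and PIM genes were higher for 6 and lower for 2 of 11 (1 lower without CTRL 3). The higher count was 4 without any 1 of CTRL 2, CTRL 3, siIRF4 1 or siIRF4 2, and 5 without CTRL 1. It was also 4 without a filter and with eBayes without trend. MAPK feedback genes were higher for 4 and lower for 3 of 8, PHLDA1 rising from 18.7 to 41.97 TPM and ETV5 falling from 9.53 to 6.35 TPM. Immediate early genes were higher for 3 and lower for 4 of 12 (25.0% and 33.3%, beside 26.5% and 23.3% of all genes tested). BTG2, an antiproliferative gene, rose from 461 to 729 TPM and NR4A1 fell from 1.88 to 0.918 TPM. Krüppel-like factor genes were higher for 5 and lower for 4 of 14 (35.7% and 28.6%), KLF11 (11.6 to 7.28 TPM) after KLF2. KLF8 (0.766 to 1.29 TPM), among the higher, passed the filter only through siIRF4, and 2 were lower without CTRL 3, siIRF4 1 or siIRF4 3. Of 4 metallothionein genes MT1X rose.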
